A study of Rattus norvegicus with 8 samples.

Results

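*Ccl2*, *Ccl7*, and *Ccl12* encode chemokines that attract monocytes, and *Ccr2* encodes the receptor through which they act. These 4 genes were looked up by symbol in the deposited tables of mRNA from the rat Achilles tendon, which list 32883 genes. Rows were found for the 3 chemokines, and *Ccr2* was not analysed here. The group of genes was put together because the chemokines had higher expression after running in these same rats. Their difference between running and resting rats is therefore described below with its size and spread, and no test of it is given. The genes of the surrounding pathway come from lists of known roles, which were chosen with earlier results of these data known.

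The 8 rats were wild-type, young adult male Sprague-Dawley rats. Of these, 4 ran uphill on a treadmill for 1 hour and were killed 12 hours later (12 hours p.r.), while the 4 control rats rested in their cages and were killed at the same time (NC). According to the methods of the study, airflow urged the runners on, and those that stepped off the belt got a mild electric stimulus. Neither group received a drug or an injury, and each library came from the right tendon of a single rat. The study asked how the tendon responds to a bout of running, and other times after the run were not analysed here.

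CC chemokines are small secreted proteins with a pair of adjacent cysteines near the amino terminus. CCL2, also called monocyte chemoattractant protein, draws monocytes out of bone marrow and blood by binding CCR2, a G protein-coupled receptor. CCL7 binds CCR2 and further CC receptors, and CCL12 is a rodent chemokine close to CCL2. Their genes lie side by side in a cluster and are induced in fibroblasts, endothelial cells, and macrophages by cytokines such as interleukin-1 and tumor necrosis factor, largely through nuclear factor kB (NF-kB) and activator protein 1 (AP-1).

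In the RefSeq gene table of the assembly GRCr8, the protein-coding genes of the cluster on chromosome 10 follow each other as *Ccl2*, *Ccl7*, *Ccl11*, *Ccl12*, and *Ccl1*. The same table places *Ccr2* on chromosome 8, near *Ccr1*, *Ccr3*, and *Ccr1l1*. The 250 bases before the start of *Ccl7* (chr10:67513845-67514094) and of *Ccl12* (chr10:67567626-67567875), both on the plus strand of GRCr8, are shown because these neighbors moved in the same direction and their proximal sequences can be read against the NF-kB and AP-1 genes below. The sequences are from RefSeq, whose promoter table held entries for 3 of the 4 genes, and *Ccl2* was the gene without an entry. Capitals mark matches to the TATA box and AP-1 motifs.
*Ccl7*: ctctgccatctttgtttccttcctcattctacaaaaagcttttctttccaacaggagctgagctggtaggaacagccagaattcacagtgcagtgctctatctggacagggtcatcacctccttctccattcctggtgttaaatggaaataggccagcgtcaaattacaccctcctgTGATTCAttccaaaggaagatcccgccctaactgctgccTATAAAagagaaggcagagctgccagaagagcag
*Ccl12*: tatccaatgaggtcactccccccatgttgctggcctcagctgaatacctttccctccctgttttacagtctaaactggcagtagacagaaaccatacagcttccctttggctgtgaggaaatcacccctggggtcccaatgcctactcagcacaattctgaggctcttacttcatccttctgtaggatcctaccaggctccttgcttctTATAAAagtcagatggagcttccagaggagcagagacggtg

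Both strands of these windows were searched for 6 motifs. The TATA box (TATAAA) was found 34 to 29 bases before the start of *Ccl7* and 41 to 36 bases before the start of *Ccl12*, and 12.9% of 33469 promoters of the same length hold it. The *Ccl7* window also held an AP-1 match (TGANTCA, in 6.34% of promoters) 73 to 67 bases before the start, which reads on both strands. An NF-kB match, found in 6.33% of promoters, lay on the minus strand 59 to 50 bases before the start of *Ccl7*. A GC box (GGGCGG, in 30.5% of promoters) overlapped it at 51 to 46 bases. The *Ccl12* window held none of these 3 letter strings. Neither window held the cyclic AMP response element (TGACGTCA, in 1.59% of promoters) or the C/EBP motif (TTNCNNAA, in 37.2%). Such matches describe letters in a window and do not show that a factor binds there.

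Between 7350509 and 12951397 reads were counted on genes per rat. Levels are given as CPM, reads per 1000000 reads of a library whose size was scaled by TMM (the trimmed mean of M values), and comparisons between genes as FPKM, which also divides by gene length. Genes with too few reads were set aside, which left 13937 genes for the test by edgeR. Means are given ± SD over the 4 rats of a group, n = 4, running group before NC group unless named, and log2 fold changes (running over NC) with their standard error (SE). The filter on low counts kept *Ccl2* and *Ccl7* and removed *Ccl12*. The tendon markers were present, with *Scx*, a transcription factor of tenocytes, at 53.1 ± 7.34 CPM at 12 hours p.r. and 34.7 ± 10.1 CPM in the NC group. Skeletal muscle genes were present in every rat, and 8 of the 9 tested were highest in 12 hours p.r. replicate 3, while *Myh7* was highest in NC replicate 2 (757 CPM, against 51.2 CPM in that running rat).

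*Ccl2* (ENSRNOG00000007159) was the most abundant of the 3 chemokine mRNAs. Its level was 23.0, 110.8, 51.2, and 82.4 CPM in 12 hours p.r. replicates 1 to 4. It was 18.1, 16.1, 25.1, and 13.9 CPM in NC replicates 1 to 4. The 3 other running rats stood above all NC rats, whereas running replicate 1 lay inside the NC range, below NC replicate 3. The means were 66.9 ± 38.0 CPM after running and 18.3 ± 4.83 CPM at rest, a ratio of 3.65. The fitted log2 fold change was 1.87 with an SE of 0.42. Among the 13937 genes tested, 22 had a larger log2 fold change. Running therefore went with both a higher mean and a wider spread of *Ccl2*, as the highest running rat had 4.81 times the level of the lowest, against 1.80 times among the NC rats.

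*Ccl7* (ENSRNOG00000000239), the next gene along the chromosome, was at 9.06, 25.3, 9.52, and 16.3 CPM in 12 hours p.r. replicates 1 to 4. In NC replicates 1 to 4 it was at 6.89, 4.05, 6.95, and 4.42 CPM. Every running rat was above every NC rat, and running replicates 1 and 3 were closest to the resting level. The means were 15.1 ± 7.59 CPM and 5.58 ± 1.56 CPM, a ratio of 2.70. The log2 fold change was 1.42 with an SE of 0.36, and 60 of the genes tested had a larger value. The range within the running group was 2.79-fold, narrower than that of *Ccl2*.

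*Ccl12* (ENSRNOG00000029768) was rare, with 16, 29, 7, and 13 reads in 12 hours p.r. replicates 1 to 4 and 7, 1, 7, and 1 reads in NC replicates 1 to 4. These reads amount to 2.07, 3.82, 0.833, and 1.22 CPM after running and 0.561, 0.123, 0.529, and 0.0850 CPM at rest. Although running replicate 3 had as many reads as NC replicates 1 and 3, its library was smaller, so its CPM stood above theirs and the groups did not overlap. The means were 1.99 ± 1.33 CPM and 0.324 ± 0.255 CPM, a ratio of 6.12. The log2 fold change, from the fit that kept every gene with at least 1 read, was 2.48 with an SE of 0.65. A count of 7 reads has a 95% Poisson interval of 2.81 to 14.4 reads and a count of 1 read has an interval of 0.0253 to 5.57, so the resting level of *Ccl12* and the separation of running replicate 3 are within counting error. The relative counting error was between 3.37 and 8.74% per rat for *Ccl2* and between 7.22 and 17.4% for *Ccl7*, which is more than the difference between running replicates 1 and 3 in *Ccl7*.

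**Figure D1:**
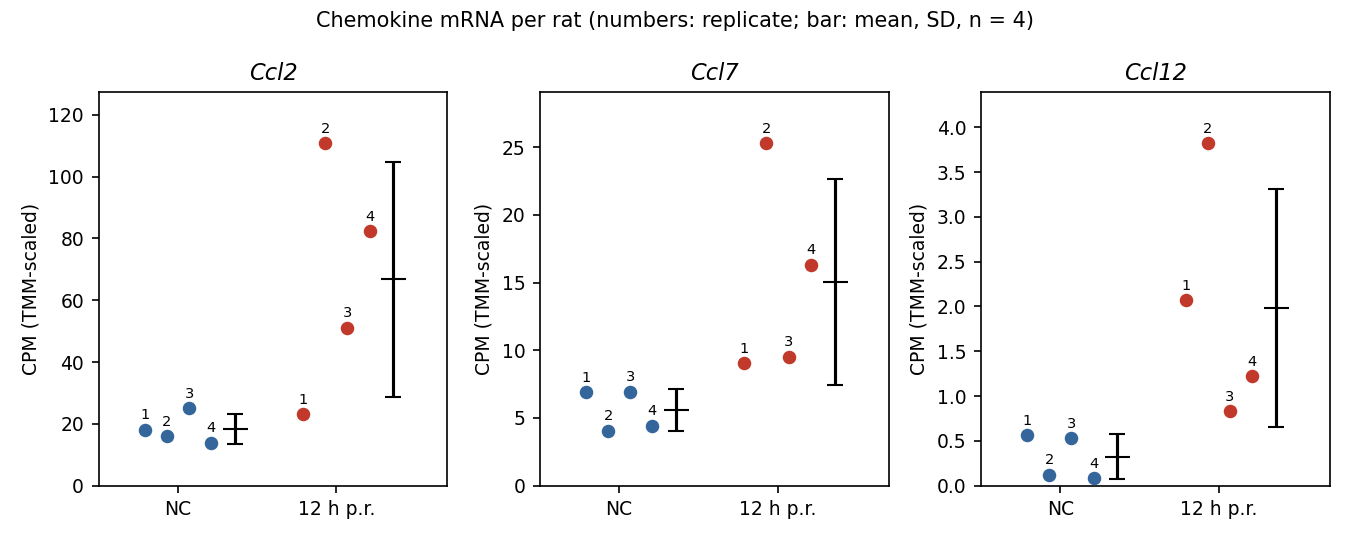
Level of *Ccl2*, *Ccl7*, and *Ccl12* in each rat, in TMM-scaled CPM on linear axes that start at 0, with NC rats in blue and 12 hours p.r. rats in red. Points are single rats with their replicate number, and the bars beside them are the mean and SD of 4 rats. Running replicate 2 was the highest rat for all 3 genes, and running replicate 1 lay inside the NC range for *Ccl2*, at 23.0 CPM.

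Running replicate 2 was the highest rat for each of the 3 chemokines, but the lowest running rat was replicate 1 for *Ccl2* and *Ccl7* and replicate 3 for *Ccl12*. On the scale of log2(CPM + 0.5), the SD of *Ccl2* was 0.98 among running rats and 0.35 among NC rats. The first value exceeded the running SD of 95.8% of the genes tested, and the second exceeded the NC SD of 78.9%. For *Ccl7* the SDs were 0.68 (above 90.7% of genes) and 0.38 (above 81.6%). For *Ccl12* they were 0.74 (above 92.2%) and 0.46 (above 87.4%). The SD of *Ccl12* at rest is compressed on this scale, as its NC values lie near or below the added 0.5. In CPM its highest NC rat had 6.60 times the level of the lowest, against 4.59 times among the running rats.

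Among all genes tested, 3.52% had every running rat above every NC rat, and *Ccl7* and *Ccl12* are 2 of the 3 chemokines with this pattern. Since the chemokines were picked from this contrast, nothing is read from this. Nothing in the labels or the text of the study ties a running rat to an NC rat.

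Per unit of length the order of the chemokines was the same in all 8 rats, with *Ccl2* above *Ccl7* and *Ccl7* above *Ccl12*. *Ccl2* was at 79.6 ± 45.3 FPKM after running and 21.8 ± 5.74 FPKM at rest. *Ccl7* was at 17.6 ± 8.89 FPKM and 6.54 ± 1.83 FPKM, and *Ccl12* at 2.91 ± 1.95 FPKM and 0.478 ± 0.376 FPKM. *Ccl2* supplied between 66.8 and 83.1% of the summed FPKM of the 3 genes in each rat. The ratio of *Ccl2* to *Ccl7* was 2.59, 4.46, 5.47, and 5.14 in running replicates 1 to 4, a mean of 4.41 ± 1.29. It was 2.68, 4.04, 3.67, and 3.21 in NC replicates 1 to 4, a mean of 3.40 ± 0.591. These ranges overlap, since running replicate 1 had the lowest ratio of all rats and the other running rats the highest. *Ccl12* made up between 1.51 and 7.40% of the sum in running rats and between 0.570 and 2.71% in NC rats.

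**Figure D2:**
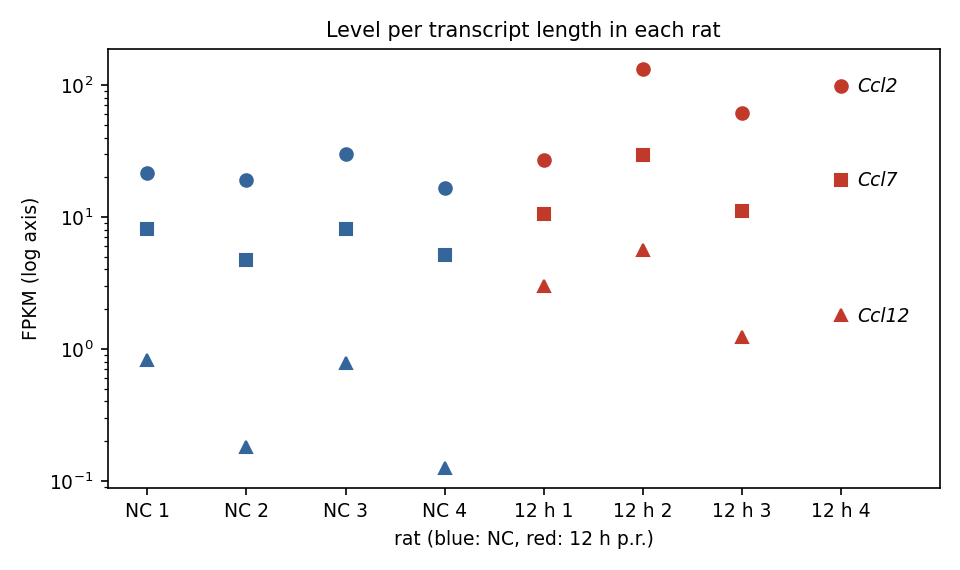
FPKM of the 3 chemokine genes in each rat on a log axis, with circles for *Ccl2*, squares for *Ccl7*, and triangles for *Ccl12*, NC rats in blue and 12 hours p.r. rats in red. The 3 genes keep one order in all 8 rats, and the triangles are lowest in NC replicates 2 and 4, which had 1 read each.

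*Ccl2* and *Ccl7* varied together across the rats. Over the 8 rats, Pearson's r of log2(CPM + 0.5) was 0.95 and Spearman's rho 0.95, and r was 0.86 after the mean of each group was subtracted. Among the 13936 other genes tested, *Ccl7* was the 7th most alike to *Ccl2*, and *Ccl2* the 9th most alike to *Ccl7*. *Ccl12* followed *Ccl7* (r of 0.91, 0.74 within groups) more closely than *Ccl2* (r of 0.77, 0.35 within groups). These values are descriptions over 8 rats of 2 groups that differ in all 3 genes. The sequences of these genes are alike, and the handling of reads with several matches is not given in the sources used here, so the split of reads between them is uncertain and its part in the likeness was not tested.

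The genes most alike to *Ccl2* by r over the 8 rats were *Vti1a* (0.98), *Snx9* (0.98), *Rab3il1* (0.97), *Id4* (0.96), and *Ccdc159* (0.95). Those most alike to *Ccl7* were *Arid3a* (0.98), *Rab3il1* (0.98), *LOC100359668* (0.97), *Gna11* (0.96), and *Vti1a* (0.96). *Vti1a* encodes a vesicle SNARE protein, *Snx9* a sorting nexin of endocytosis, *Id4* an inhibitor of helix-loop-helix transcription factors, and *Gna11* a G protein subunit. With the group means removed, r stayed between 0.88 and 0.96 for these pairs. Their difference between groups ran from a log2 fold change of 0.27 (*Vti1a* and *Snx9*) to 0.77 (*Ccdc159*). It was smaller than that of the chemokines, which were picked from this contrast. The alike genes were picked as the highest of 13936 correlations over 8 rats, so high values are built into the choice.

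Of the other genes of the cluster, *Ccl11* did not share the pattern and *Ccl1* had too few reads to judge. *Ccl11*, which encodes the eosinophil attractant eotaxin and lies between *Ccl7* and *Ccl12*, was at 1.94, 2.11, 2.02, and 1.596 CPM in running replicates 1 to 4 and 1.84, 1.72, 2.04, and 2.72 CPM in NC replicates 1 to 4. The groups overlapped, with a log2 fold change of −0.13 (SE 0.24, adjusted p of 0.895 by edgeR). *Ccl1* had 0 reads in the running rats and 1 read in the NC rats. *Tmem132e*, the next gene beyond the cluster, was at 13.3 ± 4.30 CPM and 17.2 ± 3.36 CPM, a log2 fold change of −0.36 (SE 0.25, adjusted p of 0.682 by edgeR).

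The other CC chemokine ligands showed no common direction. Of 17 listed ligands beside the 3 above, 9 had enough reads to be tested, and 5 were higher and 4 lower after running, with a median log2 fold change of 0.08 against 0.02 over all genes tested. By edgeR, 0 had an adjusted p under 0.05 and 1 an unadjusted p under 0.05 (9.51% of all genes did), and DESeq2 called 0. This gene was *Ccl24*, which encodes an eosinophil attractant that binds CCR3. It was at 10.7, 23.4, 10.6, and 14.6 CPM in running replicates 1 to 4 and 35.8, 17.3, 37.1, and 22.0 CPM in NC replicates 1 to 4. The running mean was the lower one (14.8 ± 6.03 against 28.0 ± 9.88 CPM), although the groups overlapped (log2 fold change −0.92, SE 0.32, adjusted p of 0.450 by edgeR). *Ccl9* had the largest log2 fold change of the 9, at 1.16 (SE 0.70, adjusted p of 0.640 by edgeR). Below the filter, where *Ccl12* also lay, *Ccl22* had 42 reads in the running rats and 20 in the NC rats (log2 fold change 1.41, SE 0.62). *Ccl4* had 32 and 18, whereas *Ccl19* had 23 and 51 and *Ccl20* 3 and 9. In each of these ligands the groups overlapped. They are named outside the rule for named genes, after their values were seen.

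Of the receptors and scavengers of CC chemokines, 13 of 14 listed genes had a row and 7 were tested. Their median log2 fold change was 0.04, with 4 higher and 3 lower, and 0 had an unadjusted or adjusted p under 0.05 by edgeR or an adjusted p under 0.05 by DESeq2. *Ccr1*, a receptor of CCL7 and other CC chemokines on monocytes and neutrophils, was at 8.28, 10.5, 5.59, and 6.95 CPM after running and 11.9, 3.07, 10.3, and 8.33 CPM at rest, in the order of the replicates. The groups overlapped, and the log2 fold change was −0.11 (SE 0.37, adjusted p of 0.945 by edgeR). *Ccr3* had 0 reads in the running rats and 10 in the NC rats, and *Ccr1l1* had 1 read in all. *Ackr3*, a scavenger of the chemokine CXCL12, was the most abundant gene of this list at 108.8 ± 34.7 CPM and 142.2 ± 27.0 CPM. *Ackr4*, a scavenger of CCL19 and CCL21, followed at 28.0 ± 9.70 CPM and 20.5 ± 5.47 CPM.

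Downstream of the receptors, 22 of 24 listed signaling genes were tested, with a median of 0.05. In 3 genes the unadjusted p by edgeR was under 0.05, beside 9.51% of all genes. In each of the 3, every running rat was above every NC rat, beside 3.52% of all genes tested. The 3 genes were picked by their p, which favors such a separation. They were *Mapk3*, which encodes the kinase ERK1 (log2 fold change 0.32, SE 0.10), *Arrb1*, which encodes a beta-arrestin (0.43, SE 0.14), and *Plcb3*, a phospholipase C gene (0.29, SE 0.09). Each had an edgeR adjusted p of 0.433. *Mapk3* was at 168.3 ± 14.1 CPM and 134.9 ± 9.11 CPM, and *Arrb1* at 18.5 ± 0.920 CPM and 13.7 ± 2.31 CPM.

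Among the inducers of *Ccl2*, *Il6* had 4 reads in the running rats and 6 in the NC rats, whose libraries differed in size. Its mean was 0.122 CPM after running and 0.114 CPM at rest. *Tnf* had 2 and 4 reads. *Il1a* had 5 reads in the running rats and 1 in the NC rats. *Csf2* had 7 and 2, and 6 of the 7 were in running replicate 2. *Il1b*, the interleukin-1 beta gene, was at 2.46 and 2.51 CPM on average, with overlapping groups. Other inducers had more reads, such as the growth factor genes *Csf1* (79.5 and 71.7 CPM) and *Pdgfb* (55.0 and 54.0 CPM). These inducers are named outside the rule for named genes, after their values were seen. Of 20 listed inducers and their receptors 15 were tested, with a median of 0.03. *Il6r*, the interleukin-6 receptor, was lower in every running rat than in every NC rat, at 30.1 ± 4.33 CPM against 44.4 ± 8.12 CPM (log2 fold change −0.56, SE 0.15, adjusted p of 0.432 by edgeR). *Ifngr1*, an interferon gamma receptor chain, was also lower without overlap, at 126.7 ± 5.60 CPM against 166.0 ± 29.2 CPM (log2 fold change −0.39, SE 0.13, adjusted p of 0.433 by edgeR). These were the 2 genes of the list with an unadjusted p under 0.05 by edgeR, beside 9.51% of all genes. They were picked by their p, which favors a separation without overlap. The share of all genes with every running rat below every NC rat was not counted.

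Of the NF-kB subunits, inhibitors, and response genes, 22 of 23 were tested and 16 were higher after running, with a median of 0.14. At an unadjusted p under 0.05 by edgeR, 3 were higher and 2 lower, beside 9.51% of all genes in either direction. *Tnip1*, which encodes an inhibitor of NF-kB signaling, was at 91.4 ± 12.0 CPM after running and 67.2 ± 5.38 CPM at rest (log2 fold change 0.44, SE 0.11, adjusted p of 0.402 by edgeR). *Traf1*, an adaptor of tumor necrosis factor receptors, was at 10.3 ± 1.68 CPM and 6.75 ± 0.619 CPM (0.60, SE 0.16, adjusted p of 0.429 by edgeR). In both genes, which were picked by their p, every running rat was above every NC rat, beside 3.52% of all genes tested. *Nfkbiz*, which encodes an atypical inhibitor of kB, was lower, at 19.6 ± 3.63 CPM and 27.9 ± 6.01 CPM (−0.51, SE 0.18, adjusted p of 0.452 by edgeR). All 8 AP-1 subunit genes were tested, with a median of −0.07, and *Fosl1*, the Fra-1 gene, was the gene with an unadjusted p under 0.05. It was at 3.81 ± 1.17 CPM and 2.16 ± 0.520 CPM (0.80, SE 0.28, adjusted p of 0.452 by edgeR). The lowest running rat was above the highest NC rat, beside 3.52% of all genes tested, and this gene was also picked by its p.

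Glucocorticoids are hormones that repress chemokine genes, and the genes tested here are switched on by their receptor. The receptor gene *Nr3c1* was listed too and was not tested. Of 8 listed genes 7 were tested, and 4 were lower after running at an unadjusted p under 0.05 by edgeR, beside 9.51% of all genes in either direction. The other 3 also had values below 0 without passing, and the median log2 fold change was −0.70. *Zbtb16*, a zinc finger transcription factor gene, was at 9.58, 9.75, 7.14, and 7.60 CPM in running replicates 1 to 4 and 22.0, 16.8, 19.3, and 31.9 CPM in NC replicates 1 to 4, without overlap (log2 fold change −1.40, SE 0.22, adjusted p of 0.221 by edgeR). *Tsc22d3*, which encodes the leucine zipper protein GILZ, was at 309.4, 230.4, 224.0, and 247.3 CPM after running and 505.1, 429.7, 397.5, and 857.6 CPM at rest, again without overlap (−1.11, SE 0.25, adjusted p of 0.385 by edgeR). *Fkbp5*, a cochaperone of the glucocorticoid receptor, was at 73.5, 39.3, 60.7, and 51.8 CPM after running and 193.7, 71.6, 125.1, and 215.6 CPM at rest, so that 1 running rat lay just above 1 NC rat (−1.43, SE 0.33, adjusted p of 0.392 by edgeR). All 3 genes were picked by their p, which favors groups that do not overlap. The share of all genes with every running rat below every NC rat was not counted. With Benjamini-Hochberg adjustment, edgeR called 0 genes of this list and 0.00718% of all genes. DESeq2's Wald test called these 3, and 0.666% of all genes in either direction.

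Over the 7 pathway lists, 90 of 114 listed genes were tested. By edgeR, 7 were higher and 9 lower at an unadjusted p under 0.05, which is 16 of 90 genes beside 9.51% of all genes. Since the lists were chosen with earlier results of these data known, nothing is read from this share. By edgeR 0 had an adjusted p under 0.05, and the smallest was 0.221, while DESeq2 called the 3 glucocorticoid response genes above. The median log2 fold change was 0.05. The values of *Ccl2* (1.87) and *Ccl7* (1.42) are not read against it, since the chemokines were picked from this contrast.

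**Figure D3:**
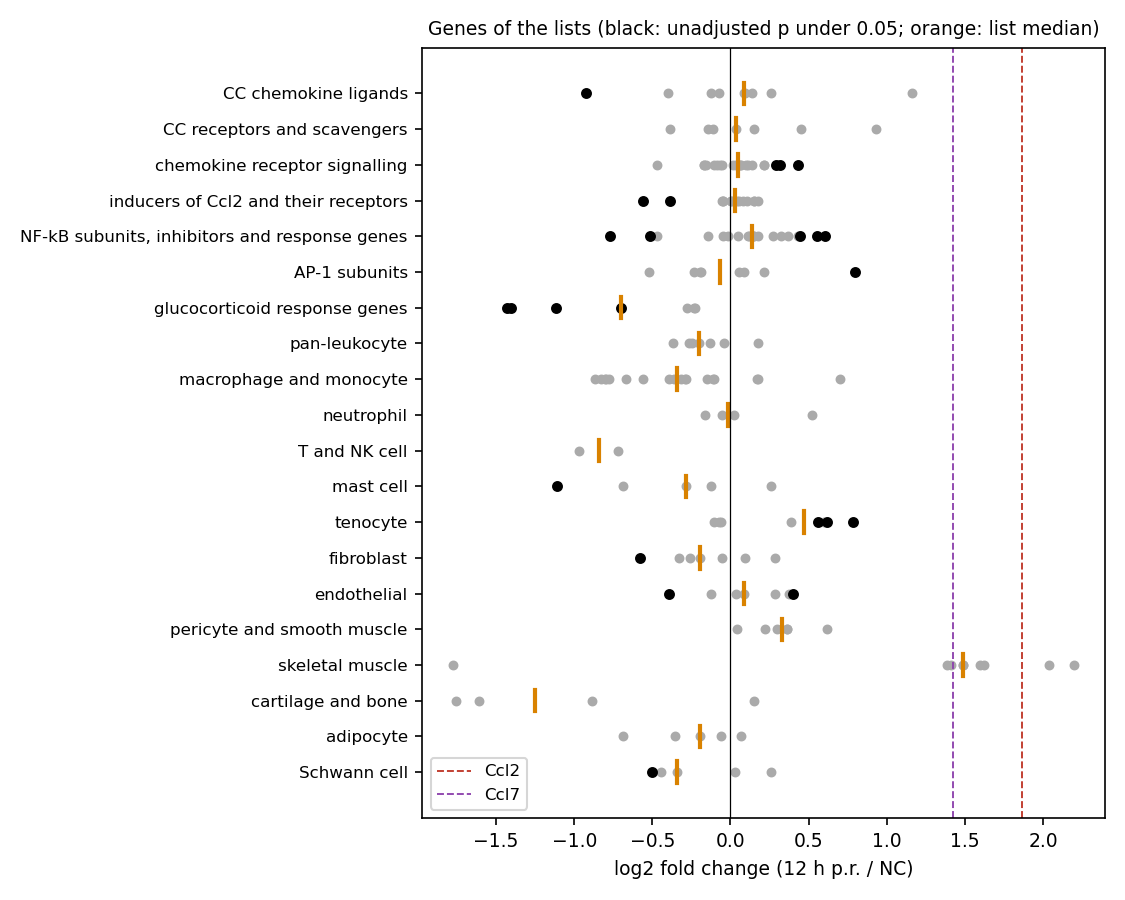
Log2 fold change (12 hours p.r. over NC, edgeR) of each tested gene of the pathway and cell type lists, 1 row of points per list. Black points have an unadjusted p under 0.05, orange bars are list medians, and dashed lines mark *Ccl2* at 1.87 and *Ccl7* at 1.42. Apart from skeletal muscle genes, which varied widely between rats, no gene shown reached the line of *Ccl7*. Since *Ccl2* and *Ccl7* were picked from this contrast, nothing is read from this.

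In a whole tendon, a difference in mRNA can come from more cells of a type or from more RNA per cell, and these cannot be told apart here. Markers of the cells that chemokines recruit were set beside the chemokines. Of the 19 listed macrophage and monocyte markers 18 were tested, and 3 were higher and 15 lower after running, with a median log2 fold change of −0.34. By edgeR 0 of them had an adjusted or an unadjusted p under 0.05, and DESeq2 called 0. *Lyz2*, the lysozyme gene, was at 1043 ± 726 CPM after running and 1906 ± 1180 CPM at rest, and *C1qa*, a complement gene of resident macrophages, at 117.6 ± 39.6 CPM and 187.0 ± 80.1 CPM. The summed level of the macrophage list ran from 812 to 3207 CPM in running rats and from 1108 to 4499 CPM in NC rats, and none of its genes was at 0 in any rat.

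The mean log2(CPM + 0.5) of the macrophage markers was 5.25, 5.92, 4.48, and 5.40 in running replicates 1 to 4 and 6.06, 4.68, 5.78, and 5.92 in NC replicates 1 to 4. Running replicate 3 had the lowest macrophage level of all rats, and its *Ccl2* was at 51.2 CPM. Its pan-leukocyte and tenocyte marker means were the lowest of all rats too (4.65 and 8.62), and its muscle marker mean was the highest (11.8). Which cells the *Ccl2* mRNA came from was not tested. Over the 8 rats, r between this mean and *Ccl2* was −0.04, and r with *Ccl7* was 0.17. With the group means removed, r was 0.35 for *Ccl2* and 0.73 for *Ccl7*, over the same 8 libraries. Within groups, r with *Ccl2* and *Ccl7* was 0.40 and 0.78 for the pan-leukocyte markers and 0.47 and 0.66 for the fibroblast markers. Some other marker lists had larger values within groups, with the opposite sign. They were −0.78 and −0.90 for pericytes and smooth muscle, −0.64 and −0.80 for endothelium, and −0.67 and −0.74 for adipocytes, for *Ccl2* and *Ccl7* in that order. The 7 pan-leukocyte markers had a median log2 fold change of −0.20, again with 0 genes at an unadjusted p under 0.05 by edgeR. With the leukocyte marker mean as a covariate, the log2 fold change was 1.97 for *Ccl2*, 1.62 for *Ccl7*, and 2.95 for *Ccl12*.

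**Figure D4:**
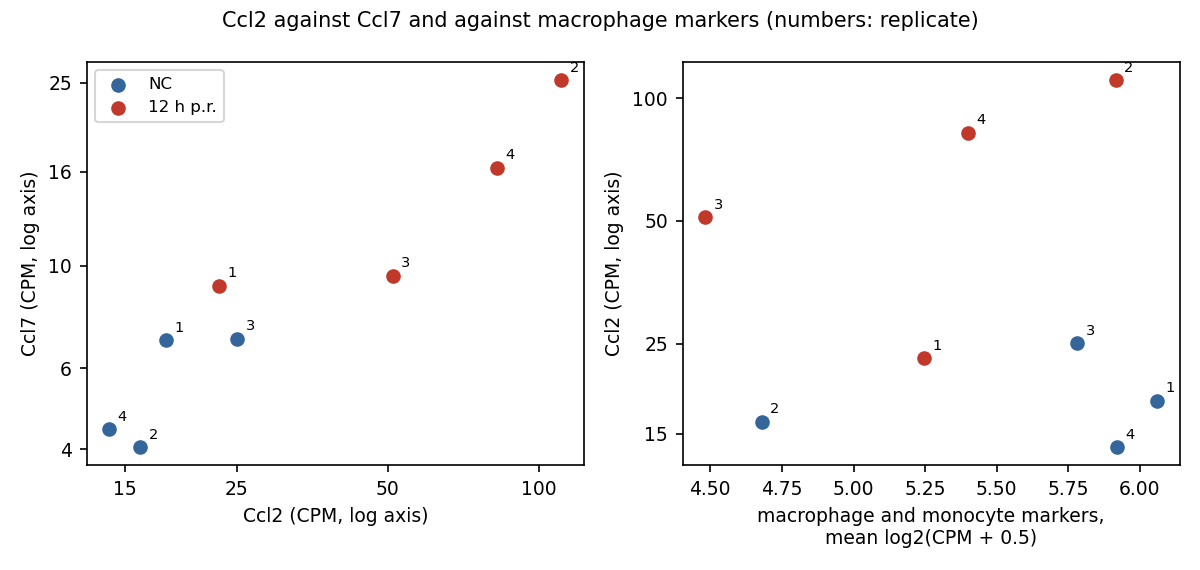
*Ccl7* against *Ccl2* (left, both in CPM on log axes) and *Ccl2* in CPM on a log axis against the mean log2(CPM + 0.5) of the macrophage and monocyte markers (right). Each point is 1 rat with its replicate number, NC in blue and 12 hours p.r. in red. Over the 8 rats, r was 0.95 on the left and −0.04 on the right. With the group means removed, r was 0.86 on the left and 0.35 on the right.

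Other cell types differed between rats as well. The neutrophil markers tested had a median log2 fold change of −0.02 over 4 of 8 genes, and *Elane*, *Camp*, and *Ngp* were at 0 in at least 1 rat. Only 2 of 8 T and NK cell markers were tested, with a median of −0.84, and *Cd3e*, *Cd3d*, *Cd3g*, and *Klrd1* were at 0 in at least 1 rat. Of 4 B cell markers 0 had enough reads. The 5 mast cell markers had a median of −0.29, and *Cpa3*, a mast cell protease gene, was at 16.6 ± 6.94 CPM against 35.6 ± 13.03 CPM (−1.11, SE 0.36, adjusted p of 0.433 by edgeR). The 8 tenocyte markers had a median of 0.47, with 5 higher and 3 lower after running. The 3 lower ones were *Tnmd* (−0.07), *Col1a1* (−0.11), and *Fmod* (−0.06), which are named outside the rule for named genes. *Mkx*, *Scx*, and *Thbs4* were higher after running at an unadjusted p under 0.05 by edgeR, beside 9.51% of all genes in either direction. Their log2 fold changes were 0.78, 0.62, and 0.56, with edgeR adjusted p values between 0.451 and 0.506. The endothelial markers had a median of 0.09. Among them *Egfl7*, a secreted factor gene of endothelial cells, was at 164.8, 164.3, 182.1, and 162.9 CPM in running replicates 1 to 4 and 133.0, 138.1, 115.4, and 124.9 CPM in NC replicates 1 to 4, without overlap (log2 fold change 0.40, SE 0.09, adjusted p of 0.392 by edgeR). It was the marker gene that DESeq2 called (adjusted p of 0.0155), where 0.374% of all genes were called higher. Every running rat was above every NC rat in 3.52% of all genes tested, and *Egfl7* was picked by its p, which favors this. *Emcn*, the endomucin gene, was lower at an unadjusted p under 0.05 (−0.40, SE 0.16), as was the fibroblast gene *Pi16* (−0.58, SE 0.20). Fibroblast markers had a median of −0.20, pericyte and smooth muscle markers of 0.33, adipocyte markers of −0.20, and Schwann cell markers of −0.34.

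Skeletal muscle markers had a median of 1.49 and cartilage and bone markers of −1.25, both with 0 genes at an unadjusted p under 0.05 by edgeR. The muscle mean was 11.8 in running replicate 3, against 6.50 to 7.95 in the other running rats and 5.87 to 9.88 in the NC rats. Its part in the chemokine levels was not tested. With the muscle marker mean as a covariate, the log2 fold change was 1.85 for *Ccl2*, 1.37 for *Ccl7*, and 2.34 for *Ccl12*. Without running replicate 3, the values were 1.97, 1.58, and 2.73.

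Among the fits that left out 1 rat, the chemokine difference was smallest without running replicate 2. There the log2 fold change was 1.51 for *Ccl2*, 1.06 for *Ccl7*, and 1.96 for *Ccl12*, which are folds of 2.85, 2.08, and 3.90 in place of 3.64, 2.68, and 5.58. Without running replicate 1, it was 2.15 for *Ccl2* and 1.598 for *Ccl7*. In every fit run, with all rats or with 1 left out, the 3 chemokines were higher after running.

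**Figure D5:**
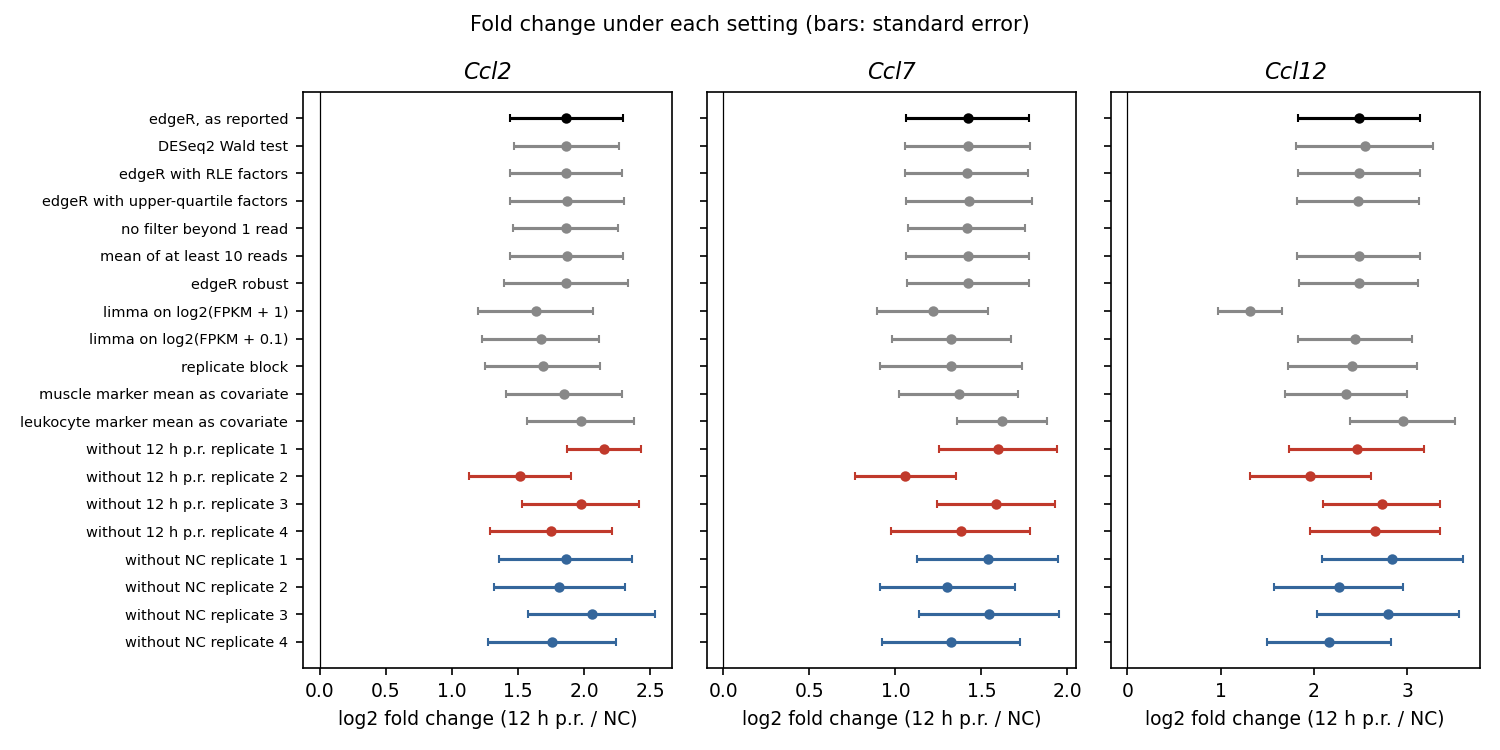
Log2 fold change (12 hours p.r. over NC) of *Ccl2*, *Ccl7*, and *Ccl12* under each way of processing, as points with standard error bars, with the reported value in black, other processing in gray, fits without 1 running rat in red, and fits without 1 NC rat in blue. *Ccl12* was below the filter, and its reported value is from the fit of every gene with at least 1 read. All points lie above 0, and those without running replicate 2 are the lowest of the fits without 1 rat (1.51, 1.06, and 1.96).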

How the data were processed

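Stranded polyadenylate mRNA libraries of the right Achilles tendon of 4 rats at 12 hours p.r. and 4 NC rats were sequenced on an Illumina instrument. According to the submitters' processing notes and the methods of the study, the authors used HISAT2 2.1.0 for alignment to Rnor_6.0 and featureCounts 1.6.3 for reads per Ensembl gene. The counts were deposited by the authors as whole reads without normalization. The authors also deposited FPKM values, scaled by gene length and 1 factor per rat. Their own comparison by DESeq2 1.30.1 (log2 fold changes and p-values) was deposited too and not used. The strand setting of the counting and the handling of reads that match several genes are not given in the sources used here.

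Sample titles gave the group and replicate number. Counts were filtered with filterByExpr, scaled by TMM, and compared between groups with the quasi-likelihood test of edgeR 4.0.16 (R 4.3.3), with no covariate and with Benjamini-Hochberg adjustment over 13937 genes. *Ccl12*, below the filter, was fitted with all genes of at least 1 read. Standard errors come from the quasi-likelihood F statistic. Alternatives were DESeq2 1.42.0, other size factors and filters, limma 3.58.1 on log2 FPKM, covariates, a replicate block, and each rat left out. P-values set the difference between the groups against the spread between these rats. Depth was 7350509 to 12951397 reads per rat, and intervals of counts cover counting error only.

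The chemokines and the gene lists were chosen with earlier results of these data known. Named genes are the members, up to 3 genes per list with the smallest unadjusted p under 0.05 (otherwise the 2 most abundant), the 5 genes most alike to *Ccl2* and to *Ccl7*, and the chromosomal neighbors, and 2 of the genes so chosen are not reported here. Promoters and gene order are from RefSeq (GRCr8).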

Additional observations from a re-analysis of the deposited data

Results flagged for a closer look

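In 118 groups of 4 rats (the chemokines, marker means, named genes, and library totals), 10 held a rat far from the other 3 by Dixon's criterion, and chance gives about 5.9. None of these values belonged to *Ccl2*, *Ccl7*, or *Ccl12*. All values are log2(CPM + 0.5) or the mean of it over a list, and no explanation was tested.

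Running replicate 3 gave 4 of them. Its tenocyte marker mean was 8.62, with the next running rat at 9.72, and its *Acan*, a cartilage proteoglycan gene, was 3.39 with the next at 6.30. It was highest in *Acta1*, the skeletal muscle actin gene, at 13.9 (next 9.85), and in *Egfl7*, an endothelial gene, at 7.51 (next 7.37). Running replicate 2, the highest rat for the chemokines, was lowest in the neutrophil gene *S100a9* at 0.37 (next 1.12).

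In the NC group, replicate 3 was highest in the cartilage and bone marker mean at 5.66 (next 1.24) and in *Col2a1*, the cartilage collagen gene, at 9.21 (next 3.50). NC replicate 1 was highest in the B cell marker mean at −0.053 (next −0.62) and in the myeloperoxidase gene *Mpo* at 3.21 (next 2.53). NC replicate 4 was highest in *Nfkbiz* at 5.22 (next 4.69).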

How the results depend on the processing

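The log2 fold changes of *Ccl2*, *Ccl7*, and *Ccl12* were above 0 in all of the 19, 19, and 18 alternatives run. With all rats they ran from 1.63 to 1.97, from 1.22 to 1.62, and from 1.31 to 2.95. The value of 1.31 for *Ccl12* is from limma on log2(FPKM + 1), a scale that understates changes of genes at few FPKM. Without 1 rat in turn they ran from 1.51 to 2.15, from 1.06 to 1.598, and from 1.96 to 2.84. Of the 177 listed genes tested by edgeR, 0 had an adjusted p under 0.05, also without each rat in turn (0 to 0), and DESeq2 called 4 of 178 (*Zbtb16*, *Tsc22d3*, *Fkbp5*, and *Egfl7*). At an unadjusted p under 0.05 there were 24, against 37 with the muscle marker mean as a covariate (the cause was not tested), 21 to 33 without 1 rat, and 10 at an unadjusted p under 0.01. The replicate block gave 1.69, 1.32, and 2.41 for the chemokines and 23 listed genes. The numbers share only a label between groups, since deviations of rats with the same number correlated by 0.07, −0.20, 0.13, and 0.09. The planned correlations with *Ccr2* were not run. Depth limits *Ccl12* most, as its resting level rests on 16 reads.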
